A study of Macaca mulatta with 8 samples.

Results

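The genes described here are apoptosis and necroptosis genes, a list of 36 symbols named by function, and their transcripts were read by gene symbol from the count tables of all 8 libraries. Of the 36 symbols, 31 were among the 35432 genes of the tables. BCL2L2, BBC3, FAS, RIPK3 and ENDOG were not found by symbol and are not analysed here. By textbook role, 7 of the 31 are survival genes, 21 are death genes, and BCL2L13, RIPK1 and CDKN1A were given no class, since they serve both sides or arrest the cell cycle.

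Apoptosis is controlled at mitochondria by the BCL2 family. Survival members such as MCL1 hold the pore formers BAX and BAK1 in check, and BH3-only proteins such as BCL2L11 (BIM), BAD and PMAIP1 (NOXA) bind the survival members and release that hold. Once the outer membrane opens, cytochrome c (CYCS) joins APAF1 to activate caspase 9, while XIAP and BIRC2 restrain caspases or their upstream complexes, and death receptors reach caspase 8 through FADD and TRADD under the control of CFLAR (c-FLIP). When caspase 8 is blocked, RIPK1 can instead lead to MLKL and necroptosis. In macrophages, NF-κB signalling downstream of TLR4 is known to raise the transcription of several survival genes, among them BCL2A1, CFLAR and the BIRC genes.

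The cells were primary microglia from subcortical white matter of 4 rhesus macaques (males R07110 and R12016, females R02046 and R14143), kept for 8 days without passaging in serum-containing medium with M-CSF. At day 7, the cells of each animal were given either 10 µg/mL uLPS, an ultrapure lipopolysaccharide that engages TLR4, or the same uLPS after 1 h with 5 µM MRS2578, an antagonist of the UDP receptor P2RY6, and RNA was taken 16 h after uLPS. Each animal gave 1 library per condition, so n = 4 in each, and no library without uLPS was analysed here. The comparison therefore asks what MRS2578 adds to uLPS-exposed cells, and does not measure the response to uLPS itself. The paper describes MRS2578 as selective but not fully specific for P2RY6, and effects through other targets were not tested here.

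Total counts ran from 9231109 to 32790348 per library, and the smallest was the library of R02046 labelled uLPS. For R02046, the sample labels and the study's own per-library CPM listing give the 2 libraries opposite conditions, whereas the other 6 libraries carry the same condition in both. Values are therefore given with the labels, with the R02046 libraries exchanged, and without R02046. Of 14 microglia markers, 13 were found by symbol. CD14 (4768 to 7646 CPM), CSF1R (1007 to 1471 CPM) and ITGAM (477 to 915 CPM) were high in all 8 libraries. TREM2 (11.7 to 39.7 CPM) and P2RY12 (5.7 to 13.3 CPM) were much lower, and TMEM119 had at most 5 counts and CX3CR1 at most 35. Lymphocyte markers summed to at most 0.759 CPM, with CD3G and NKG7 at 0 counts in every library, and neutrophil markers to at most 9.87 CPM. Fibroblast markers, mainly collagens, summed to between 136 and 1261 CPM with uLPS and between 261 and 579 CPM with MRS2578, from 136 to 261 in R12016 and from 1261 to 476 in R14143. Oligodendrocyte markers summed to between 223 and 407 CPM over the 8 libraries, endothelial and mural cell markers to between 180.1 and 337 CPM, and astrocyte markers to between 88.7 and 205 CPM. The astrocyte marker SLC1A2 was the only marker called in any of the 3 assignments, with a log2 fold change of -1.22 (adjusted p = 0.0328) with the exchange and -0.58 with the labels. Mitochondrial transcripts took 0.187% to 0.356% of counts.

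All 31 members passed the filter on low counts. CPM is the count scaled to library size by TMM, and levels of different genes are compared only as CPM per kb of exon, with exon lengths from the RefSeq annotation of Mmul_10. With uLPS, the survival gene MCL1 had the highest level per length, at 126 ± 27.2 CPM per kb (SD, n = 4), and the BH3-only gene BMF the lowest, at 0.198 ± 0.138 CPM per kb. Just below MCL1 came CYCS at 96.5 ± 22.8 CPM per kb, BCL2A1 at 92.4 ± 27.3, the p53 target and cell cycle inhibitor CDKN1A at 91.9 ± 29.1, and CFLAR at 87.4 ± 39.6. Their order was not the same in every animal: MCL1 exceeded CYCS in 3 of 4 donors and CYCS exceeded BCL2A1 in 1 of 4. Of the 30 neighbouring pairs in this order, 8 kept 1 order in all 4 donors. CYCS has processed pseudogene copies, so its count is uncertain.

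**Figure D1:**
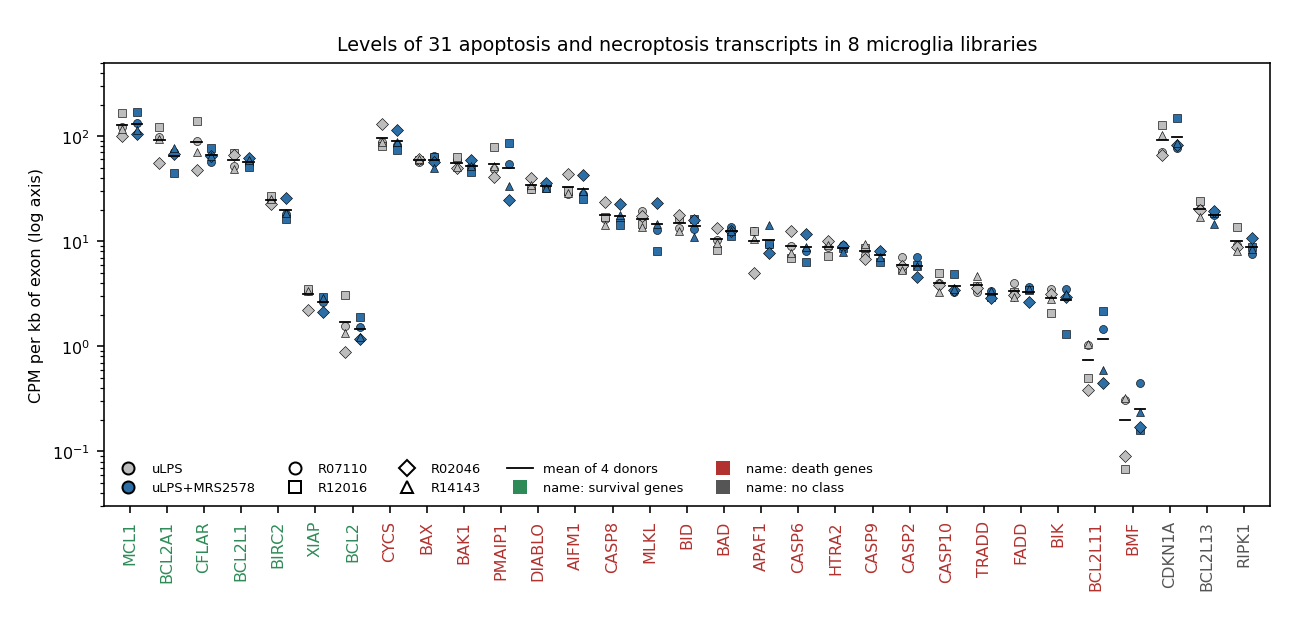
Level of each of the 31 members in CPM per kb of exon (log axis), with grey symbols for uLPS, blue symbols for uLPS+MRS2578, 1 symbol shape per donor and a line at the mean of 4 donors. Survival genes are named in green, death genes in red and genes with no class in grey, and the survival genes span from MCL1 at 126 CPM per kb down to BCL2 at 1.72 CPM per kb with uLPS.

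The survival genes thus covered a wide range of levels. MCL1, BCL2A1, CFLAR and BCL2L1 (BCL-XL, 59.1 ± 10.4 CPM per kb) stood high with uLPS. BIRC2 was at 24.9 ± 1.89 CPM per kb, XIAP at 3.12 ± 0.594 and BCL2, the founding member of the family, at 1.72 ± 0.961. Among the death genes, the pore formers BAX (59.2 ± 1.66 CPM per kb) and BAK1 (55.9 ± 6.35) had levels near that of BCL2L1, and BAX varied least between donors, with a coefficient of variation of 2.81% with uLPS.

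The caspases and their adaptors were less abundant per length. With uLPS, caspase 8 was at 17.8 ± 3.88 CPM per kb, caspase 6 at 9.0 ± 2.39, caspase 9 at 8.07 ± 1.19, caspase 2 at 5.92 ± 0.802 and caspase 10 at 4.0 ± 0.703. The adaptors TRADD (3.82 ± 0.581 CPM per kb) and FADD (3.34 ± 0.471) were lower than CASP8 in each donor's libraries. The necroptosis executioner MLKL was at 16.3 ± 2.57 CPM per kb and RIPK1, a kinase upstream of it, at 10.0 ± 2.57.

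The BH3-only genes differed widely from each other. PMAIP1, which preferentially binds MCL1, was at 54.9 ± 16.1 CPM per kb with uLPS, BID at 15.1 ± 2.46, BAD at 10.4 ± 2.22 and BIK at 2.89 ± 0.61. BCL2L11 was at 0.748 ± 0.354 CPM per kb. BMF rested on 4 to 52 counts per library, so its differences carry large counting error. Donors differed most, relative to the mean, for BMF (coefficient of variation 69.5% with uLPS), BCL2 (55.8%), BCL2L11 (47.4%) and CFLAR (45.3%).

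Conditions were compared by the quasi-likelihood test of edgeR, blocking on donor, and p values were adjusted by Benjamini-Hochberg over all genes tested. With the labels, 0 of 31 members passed an adjusted p of 0.05, against 0% of all 12131 genes, and 0 members but 624 genes had an unadjusted p under 0.05 (2.44% of all genes lower and 2.7% higher). DESeq2's Wald test also called 0 members, as did edgeR's likelihood ratio test, which called 0.0412% of all genes. The smallest adjusted p of any member was 0.878. With the R02046 libraries exchanged, 0 of 31 members passed, against 0.618% of all genes, and the smallest adjusted p of a member was 0.103, that of BIRC2. Without R02046, 0 members passed, against 0% of 12295 genes, with a smallest adjusted p of 0.166, again that of BIRC2. At an unadjusted p under 0.05, 6 members were lower and 1 (BAD) was higher with the exchange, against 9.59% and 6.86% of all genes, and 4 were lower and 1 (BAD) higher without R02046, against 7.86% and 5.73%. With the labels, 0 members had groups that did not overlap between conditions, against 1.08% of all genes.

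No single member passed. With the labels, 6 of 7 survival genes and 17 of 21 death genes had a fitted difference below 0, beside 52.1% of all genes. With the R02046 libraries exchanged these counts were 5 and 10, beside 49.8%. Without R02046 they were 6 and 13, beside 50.5%. The median log2 fold change, MRS2578 against uLPS, was -0.23 over the 7 survival genes and -0.04 over the 21 death genes, beside -0.0097 over all genes tested. With the R02046 libraries exchanged the medians were -0.31 and 0.00, and without R02046 they were -0.29 and -0.06. Without R12016, the survival median was -0.12 and the death median -0.02. Within the survival class, the median with the labels was -0.31 over the 3 caspase inhibitors (CFLAR, XIAP and BIRC2) and -0.09 over the 4 BCL2-like genes. The death genes TRADD (-0.28) and MLKL (-0.23) lay near the survival median. These medians are descriptions without a test, and the genes of a class are not replicates. The classes were chosen with earlier results of these data known. In R07110, R12016 and R14143, the median difference of the survival genes in log2 CPM was -0.35, -0.70 and -0.13, and in R02046 as labelled it was 0.19.

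Directions were first counted without R02046, whose labels are in doubt. In each of R07110, R12016 and R14143, 5 of the 7 survival genes (71.4%) were lower with MRS2578, beside 19.8% of all genes tested. These 5 were BCL2, BCL2A1, XIAP, BIRC2 and CFLAR, and the other two, MCL1 and BCL2L1, were not. Of the 21 death genes, 1 (BID) was lower and 1 (BAD) was higher in these 3 donors, against 19.8% and 17.0% of all genes. Over all 4 donors as labelled, 1 of the 7 survival genes (XIAP, 14.3%) and 1 of the 21 death genes (BID, 4.76%) were lower in each. With BCL2L13, these were 3 of 31 members (9.68%), beside 6.49% of all genes. In the same 4 donors, 0 members were higher in each, beside 6.43%. Within single donors, the survival genes lower with MRS2578 numbered 5, 6, 2 and 6 of 7 (R07110, R12016, R02046, R14143), beside 49.7%, 50.2%, 50.0% and 53.2% of all genes. The death genes lower in the same donors numbered 11, 12, 15 and 9 of 21. The summed level of the microglia markers was also lower with MRS2578 in R07110 (11008 and 9384 CPM), R12016 (12164 and 8773 CPM) and R14143 (11754 and 10358 CPM), and higher in R02046 (9187 and 10427 CPM), and without CD14, the most abundant of these markers, the sum kept the same direction in each donor (4300.2 and 3776, 5029 and 4005, 4108 and 3671, and 3713 and 4276 CPM in the same order). Single markers did not all follow the sum: in R14143, CSF1R, ITGAM and PTPRC differed by 0.01, 0.08 and 0.04 in log2 CPM. The mitochondrial share of counts was lower with MRS2578 in all 4 donors as labelled, at 0.275% and 0.187% in R07110, 0.313% and 0.187% in R12016, 0.310% and 0.298% in R02046, and 0.356% and 0.337% in R14143. The part of the markers and of the mitochondrial share in the counts above was not tested. In bulk RNA, fewer cells of a type and less RNA per cell cannot be told apart.

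**Figure D2:**
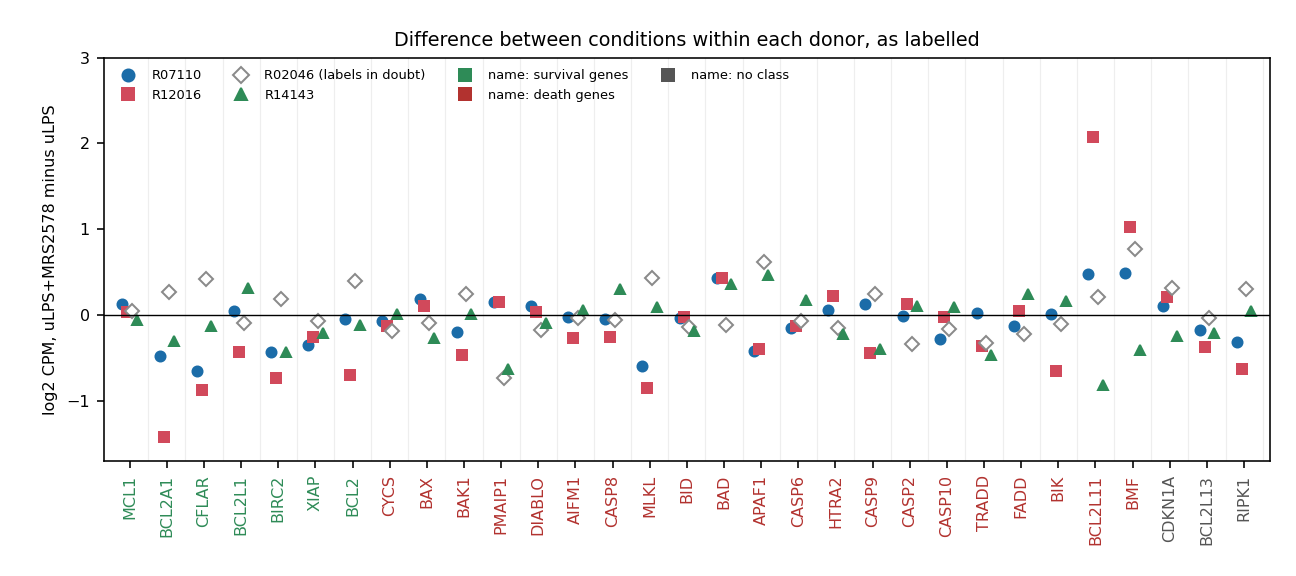
Difference in log2 CPM between uLPS+MRS2578 and uLPS within each donor for the 31 members, with filled symbols for R07110, R12016 and R14143 and open diamonds for R02046, whose labels are in doubt. BCL2A1, CFLAR and BIRC2 lie below 0 in the 3 filled donors and above 0 in R02046, while BCL2L11 spreads from -0.82 to 2.07.

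Among the survival genes, BCL2A1, an NF-κB-induced relative of BCL2, had the lowest fitted difference. With uLPS, BCL2A1 was at 79.0, 97.9, 44.7 and 76.6 CPM in R07110, R12016, R02046 and R14143. With MRS2578 it was at 56.7, 36.4, 54.0 and 62.3 CPM in the same order. It was lower with MRS2578 in all donors but R02046, and the groups overlapped. The fitted log2 fold change was -0.48 ± 0.25 (SE, 95% interval -1.07 to 0.11, adjusted p = 0.878). It was -0.62 with the R02046 libraries exchanged (adjusted p = 0.169) and -0.73 without R02046 (adjusted p = 0.275). Leaving out R12016, the donor with the largest difference, brought the labelled value to -0.17.

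CFLAR, the decoy that keeps caspase 8 from full activation, was at 360.3, 569, 194 and 286 CPM with uLPS in R07110, R12016, R02046 and R14143, and at 229.6, 312, 259 and 262 CPM with MRS2578. The uLPS libraries thus spread far more than the MRS2578 libraries, which lay close together, and R14143 differed little between conditions. The fitted log2 fold change was -0.31 ± 0.21 (95% interval -0.81 to 0.19, adjusted p = 0.882). It was -0.52 with the exchange (adjusted p = 0.106) and -0.55 without R02046 (adjusted p = 0.25). Leaving out R12016 gave -0.12.

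BIRC2 (cIAP1), a ubiquitin ligase of the TNF receptor complex, was, with uLPS, the most even of the survival genes across donors. It was at 101, 112, 92.6 and 103 CPM with uLPS and at 75.4, 66.9, 106 and 76.9 CPM with MRS2578. All MRS2578 libraries but that of R02046 lay below every uLPS library. The fitted log2 fold change was -0.35 ± 0.15 (95% interval -0.72 to 0.01, adjusted p = 0.878), and it was -0.45 with the exchange and -0.53 without R02046 (adjusted p = 0.103 and 0.166). Leaving out R12016 brought it to -0.22. Of the members, BCL2A1, CFLAR and BIRC2 passed the threshold with the exchange under edgeR's likelihood ratio test, a setting added after the data were seen (adjusted p = 0.046, 0.0185 and 0.0164), against 5.08% of all genes. With the exchange and R14143 left out, CFLAR, APAF1 and MLKL passed instead (adjusted p = 0.0169, 0.0267 and 0.0204), against 7.57% of all genes.

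The remaining survival genes differed by less. XIAP, a direct caspase inhibitor, had a fitted log2 fold change of -0.23 (95% interval -0.55 to 0.08) and BCL2 of -0.14 (-0.60 to 0.32). With the exchange and without R02046, XIAP was at -0.21 and -0.28, and BCL2 at -0.31 and -0.29. MCL1, a short-lived survival protein, was at 562, 761, 465 and 545 CPM with uLPS and at 614, 781, 483 and 524 CPM with MRS2578. The order of donors was the same in both conditions, and the differences within donors were small beside those between donors. The fitted log2 fold change of MCL1 was 0.04 ± 0.10 (95% interval -0.20 to 0.28), and that of BCL2L1 was -0.04 (-0.35 to 0.27).

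**Figure D3:**
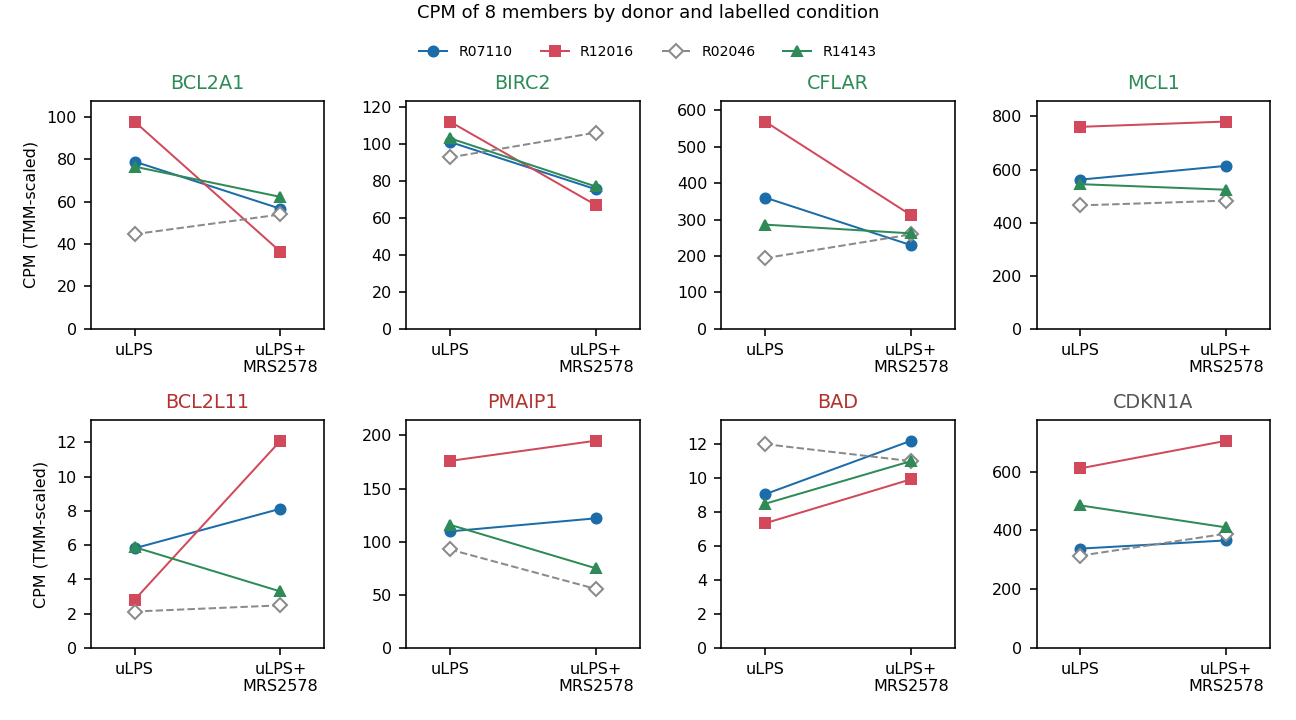
CPM of 8 members by labelled condition, with 1 line per donor and a dashed line for R02046 (vertical axes start at 0 and differ between panels). BCL2A1, BIRC2 and CFLAR slope downward in the 3 solid lines and upward in R02046, whereas MCL1 stays between 465 and 781 CPM.

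On the death side, the pore formers showed small differences with the labels. The fitted log2 fold change was -0.01 for BAX (95% interval -0.27 to 0.24) and -0.10 for BAK1 (-0.41 to 0.21). With the exchange and without R02046, BAX was at 0.03 and 0.01, and BAK1 at -0.23 and -0.22. The BH3-only genes other than BID varied in direction between animals. BCL2L11 was at 5.82, 2.81, 2.13 and 5.89 CPM with uLPS and at 8.13, 12.1, 2.49 and 3.30 CPM with MRS2578 in R07110, R12016, R02046 and R14143. It was far higher with MRS2578 in R12016, higher in R07110, close in R02046 and lower in R14143. Its fitted log2 fold change was 0.51 ± 0.45 (95% interval -0.55 to 1.57, adjusted p = 0.902), which became -0.02 without R12016.

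BAD and PMAIP1 were singled out after their values were seen. BAD, a BH3-only protein regulated by phosphorylation, was at 9.05, 7.34, 12 and 8.49 CPM with uLPS and at 12.2, 9.93, 11.0 and 11.0 CPM with MRS2578. It was higher with MRS2578 in all donors but R02046, with a fitted log2 fold change of 0.28 ± 0.16 (95% interval -0.09 to 0.66). The fitted value was 0.35 with the exchange (adjusted p = 0.271) and 0.41 without R02046 (adjusted p = 0.321). Exons of BAD share 188 bases with GPR137 on the opposite strand, so part of its count is uncertain. PMAIP1 was at 109.7, 176, 92.7 and 116 CPM with uLPS and at 122, 195, 55.6 and 75.0 CPM with MRS2578. It was slightly higher with MRS2578 in the males and lower in the females, and exchanging the R02046 libraries turned its fitted log2 fold change from -0.26 to 0.10. Of the other BH3-only genes, BID had a fitted log2 fold change of -0.10, BIK of -0.12 and BMF of 0.37 (95% interval -0.54 to 1.28).

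The apoptosome and the proteins released from mitochondria showed fitted log2 fold changes from -0.12 to 0.06. CYCS was at -0.10, CASP9 at -0.12, the XIAP antagonists DIABLO and HTRA2 at -0.03 and -0.02, and the flavoprotein AIFM1 at -0.07. APAF1, at 0.06, differed in direction between donors: its difference in log2 CPM was -0.42 in R07110 and -0.40 in R12016, but 0.62 in R02046 and 0.47 in R14143. Exons of APAF1, HTRA2 and AIFM1 overlap genes on the opposite strand, over 24.8% of the exon length in APAF1 and 43.4% in HTRA2 (shared with AUP1).

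In the death receptor complex, CASP8 had a fitted log2 fold change of -0.02 (95% interval -0.30 to 0.26), FADD of -0.01, CASP10 of -0.09 and the TNF receptor adaptor TRADD of -0.28 (-0.59 to 0.03). TRADD shares 19.6% of its exon length with FBXL8 on the opposite strand. The remaining caspases, CASP2 and CASP6, were at -0.02 and -0.04. MLKL, chosen after its values were seen, was at 58.9, 44.3, 52.3 and 41.8 CPM with uLPS and at 39.1, 24.5, 70.6 and 44.4 CPM with MRS2578. It was lower with MRS2578 in the males and higher in both females as labelled, with a fitted log2 fold change of -0.23 (95% interval -0.74 to 0.28), of -0.44 with the exchange, of -0.45 without R02046 and of -0.03 without R12016. RIPK1 was at -0.15, and BCL2L13, a mitochondrial relative of BCL2, at -0.20 (-0.42 to 0.03). RIPK1 was at -0.30 both with the exchange and without R02046, and BCL2L13 at -0.18 and -0.25.

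CDKN1A (p21) was at 338, 611, 314 and 485 CPM with uLPS and at 366, 705, 389 and 410.1 CPM with MRS2578. It was higher with MRS2578 in all donors but R14143, the differences between donors were larger than those between conditions, and the groups overlapped. Its fitted log2 fold change was 0.10 ± 0.12 (95% interval -0.19 to 0.39).

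**Figure D4:**
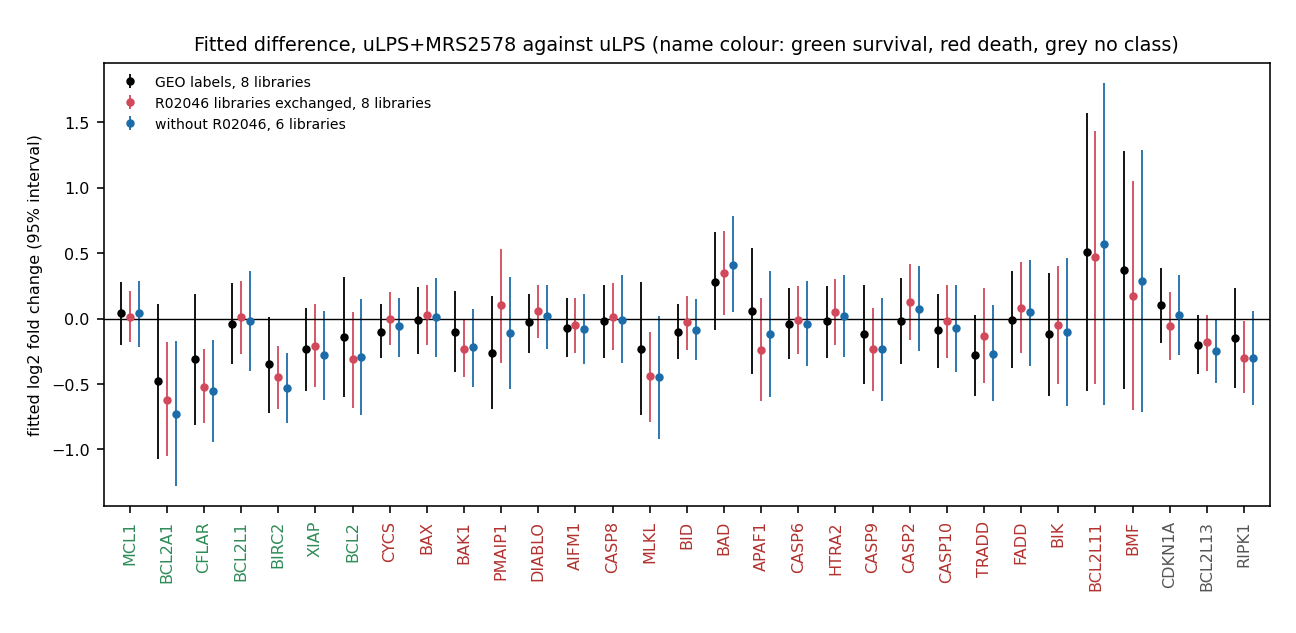
Fitted log2 fold change of each member, uLPS+MRS2578 against uLPS, with its 95% interval, for the labels (black), with the R02046 libraries exchanged (red) and without R02046 (blue). The intervals of BCL2A1, CFLAR and BIRC2 include 0 with the labels and lie below 0 in the other two fits, before adjustment for the number of genes tested.

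The balance of survival and death transcripts was followed in each library as the survival genes' share of the summed CPM per kb of both classes. With uLPS the share was 47.5%, 53.8%, 37.7% and 46.2% in R07110, R12016, R02046 and R14143, and with MRS2578 it was 44.0%, 46.0%, 41.6% and 45.8%. It was lower with MRS2578 in R07110 and R12016, higher in R02046 and almost level in R14143. The means were 46.3 ± 6.66% and 44.3 ± 2.05% (SD, n = 4), and the mean difference within donors was -1.95 ± 4.96 percentage points, smaller than its spread. It was -3.90 points with the exchange and 0.0209 points without R12016. It was -0.661 points from CPM without length correction, -0.694 points without BCL2A1 and -4.24 points without the most abundant gene of each class, MCL1 and CYCS. The summed level of the survival genes ranged from 297 to 530.4 CPM per kb, and that of the death genes from 400.4 to 491 CPM per kb.

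**Figure D5:**
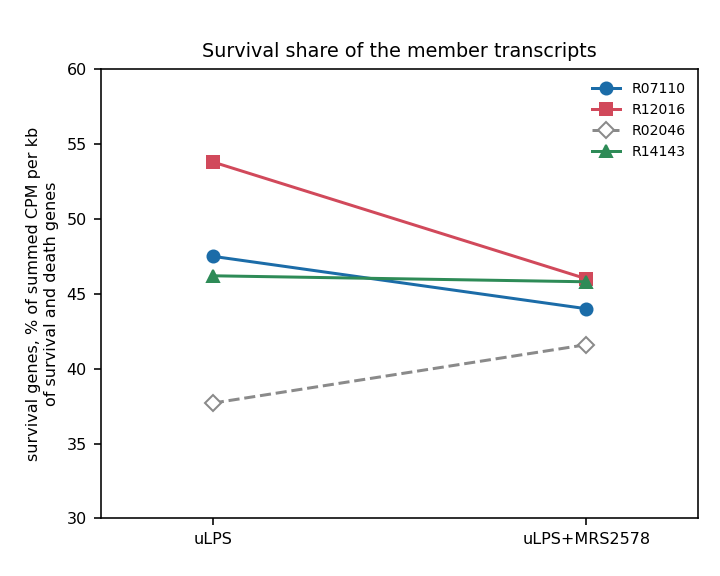
Survival genes as a percentage of the summed CPM per kb of survival and death genes in each library (vertical axis from 30% to 60%), with 1 line per donor and a dashed line for R02046. The share spans 37.7% to 53.8% with uLPS and 41.6% to 46.0% with MRS2578.

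Ratios of binding partners, taken per length, varied in the same uneven way. The ratio of BCL2A1 to BCL2L11 was 241 with uLPS and 20.7 with MRS2578 in R12016, 93.7 and 48.1 in R07110, 145 and 150.0 in R02046, and 89.7 and 130.4 in R14143. The ratio of CFLAR to CASP8 was lower with MRS2578 in R07110 (5.47 and 3.61), R12016 (8.23 and 5.42) and R14143 (4.92 and 3.66), and higher in R02046 (2.06 and 2.87). The ratio of MCL1 to PMAIP1 was near level in R07110 (2.5 and 2.46) and R12016 (2.11 and 1.95), and higher with MRS2578 in R02046 (2.45 and 4.24) and R14143 (2.3 and 3.41). BCL2L1 to BAK1 was higher in R07110 (0.879 and 1.05), R12016 (1.1 and 1.13) and R14143 (0.942 and 1.16). In R02046 it was lower (1.33 and 1.05). BCL2L1 to BAD was lower in R07110 (5.12 and 3.94) and R12016 (8.34 and 4.58). It was near level in R02046 (4.94 and 5.04) and R14143 (5.03 and 4.81). XIAP to CASP9 was lower in R07110 (0.459 and 0.328) and R02046 (0.329 and 0.264). It was higher in R12016 (0.407 and 0.463) and R14143 (0.356 and 0.405).

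Sequence before the gene start is shown for BCL2A1 and BIRC2, which were lower together in 3 donors. BCL2, XIAP and CFLAR were lower in the same 3 donors, and their sequences are not shown. PMAIP1 is shown as the only measured member with an NF-κB consensus match there. The 250 bases before each RefSeq gene start (Mmul_10) are written 5′ to 3′ along the gene, in lower case with a match in capitals, and lie at chr7:57258886-57259135 (minus strand), chr14:95615264-95615513 (plus strand) and chr18:20314853-20315102 (minus strand).
BCL2A1: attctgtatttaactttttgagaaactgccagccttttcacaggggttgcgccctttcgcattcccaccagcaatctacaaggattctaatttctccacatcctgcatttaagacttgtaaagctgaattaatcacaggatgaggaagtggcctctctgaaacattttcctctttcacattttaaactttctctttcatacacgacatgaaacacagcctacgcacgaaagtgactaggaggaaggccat
BIRC2: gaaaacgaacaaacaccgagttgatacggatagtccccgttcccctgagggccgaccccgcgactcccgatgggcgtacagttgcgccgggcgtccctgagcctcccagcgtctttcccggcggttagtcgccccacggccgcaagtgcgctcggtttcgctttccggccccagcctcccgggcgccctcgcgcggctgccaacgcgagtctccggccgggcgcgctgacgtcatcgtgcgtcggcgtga
PMAIP1: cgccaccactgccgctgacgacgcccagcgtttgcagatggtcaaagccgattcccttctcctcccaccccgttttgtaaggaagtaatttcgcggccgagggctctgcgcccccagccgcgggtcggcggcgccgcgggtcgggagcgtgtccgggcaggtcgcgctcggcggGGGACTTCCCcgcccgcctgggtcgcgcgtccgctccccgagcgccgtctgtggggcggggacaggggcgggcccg

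The match in PMAIP1 lies 76 bases before the gene start. Searched on both strands, the NF-κB consensus was found before 1024 of 20782 protein-coding genes (4.93%) and before 2 of 35 listed members with a RefSeq start (5.71%), the other being BBC3. A match is a description of letters, and its absence says nothing about sites outside this window.

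Of 34 other cell death genes, 29 could be tested, and 0 passed the threshold with the labels, with the exchange or without R02046. Their median log2 fold change was -0.04, with 17 lower and 12 higher. With the labels, TNFRSF10A, a receptor of the death ligand TRAIL, had the largest difference, at 33.9, 27.1, 37.1 and 29.4 CPM with uLPS and 88.6, 112, 28.3 and 46.7 CPM with MRS2578. It was higher in all donors but R02046, and its fitted log2 fold change was 0.95 ± 0.37 (adjusted p = 0.878). ZBP1, a nucleic acid sensor that leads to necroptosis, was at -0.79 ± 0.41, and TNFSF10, which encodes TRAIL, at -0.73 ± 0.21, lower in all 4 donors. With the exchange, ZBP1 had the largest difference, at -1.22, and TNFRSF10A was at 1.14 and TNFSF10 at -0.71. The smallest adjusted p on this list with the exchange was 0.0547, that of ZBP1.

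With the exchange and the likelihood ratio test, BIRC3, TNFRSF10A, TNFAIP3, ZBP1, TICAM1 and the p53 target BTG2 passed, of which only TNFRSF10A was higher with MRS2578. With the exchange and R14143 left out, BIRC3, NAIP, TNFAIP3 and ZBP1 passed as lower, and TNFRSF10A and the p53 target GADD45A as higher. Both settings were added after the data were seen, and they called 5.08% and 7.57% of all genes. Of the genes named, BIRC3 (cIAP2) and TNFAIP3 (A20) restrain cell death downstream of TNF receptors, and TICAM1 is a TLR adaptor. Of 20 p53 target genes, 0 passed with the labels, with the exchange or without R02046, and their median log2 fold change was 0.09. With the labels, the largest difference among them was in SESN2, at -0.46 ± 0.45, with the widest gap in R14143, where the level was 344 CPM under uLPS and 66.3 CPM under MRS2578. With the exchange, TP53I3 had the largest difference of these genes, at 0.55, and SESN2 was at -0.54.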

How the data were processed

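The data are RNA-seq of cultured macaque microglia in 8 libraries. Per the paper's methods, the authors trimmed reads with fastp (0.20), aligned them to Mmul_10 with STAR (2.5.4), sorted them with SAMtools (1.10) and counted unique reads within exons with HTSeq (0.11.0). The submitters' processing notes instead name Trimmomatic (0.30), TopHat2 (2.0.14), SAMtools (1.3) and HTSeq (0.6.1p1). The deposited values are whole-number counts per Ensembl gene, without normalization. Libraries were made with a directional kit, but the strand setting of counting and the annotation release are not given in the sources used here, so reads of genes that overlap on opposite strands cannot be told apart.

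Counts were analysed in R (4.3.3) with edgeR (4.0.16): filterByExpr with a minimum count of 10, TMM scaling, and glmQLFit and glmQLFTest with the donor as a block, with Benjamini-Hochberg adjustment at 0.05 over 12131 of 35432 genes. The SE is derived from the test statistic, and intervals are at 95%. CPM values are TMM-scaled, log2 CPM was computed with a prior count of 2, and CPM per kb uses the union of RefSeq exons. A count of 0 allows up to 3 counts, between 0.0914 and 0.32 CPM, which covers counting error only. The donor is a block because both libraries of a donor came from the same animal, and their deviations from the condition means correlated at 0.458 to 0.602. DESeq2 (1.42.0) was an alternative, beside other scaling, filters, prior counts, no block, each donor left out and the R02046 libraries exchanged.

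On simulated data for this comparison, 195 of 200 genes changed 3-fold were recovered among 12046 genes, and 4 of 200 changed 1.5-fold among 12038. The simulation gave every gene a dispersion of 0.05 and every donor the same fold. It therefore does not give the recovery of genes whose difference varies between donors. The labels give no batch. The members, classes and other lists were chosen with earlier results of these data known. All members found are named. Full values are given for the 3 highest in mean CPM. They are also given for members with an absolute log2 fold change of at least 0.5 with the labels or without R02046. Members past the threshold in the quasi-likelihood test with the labels or the exchange were to be added, and there were none. APAF1 passed only with the exchange and R14143 left out, and its levels per library are not given. Of the other lists, genes past the threshold are named, and of the cell death and p53 lists the 3 largest differences, with SESN2 and TP53I3 added after their values were seen.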

Additional observations from a re-analysis of the deposited data

Results flagged for a closer look

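Among 62 sets of 4 libraries (31 members in 2 conditions), 3 held a library far from the other 3. That is close to the share of about 1 in 20 that chance gives. CASP10 with MRS2578 was at 4.60 log2 CPM in R12016, against 4.03 to 4.12 in the other donors. XIAP with uLPS was at 3.16 log2 CPM in R02046, against 3.75 to 3.80 in the others. AIFM1 with uLPS was at 6.70 log2 CPM in R02046, against 6.09 to 6.18 in the others. These XIAP and AIFM1 values are from the library with the smallest total count.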

How the results depend on the processing

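With 4 donors, a 1.5-fold change was seldom recovered on simulated counts, so an uncalled member is not shown to be unchanged. The conditions of the R02046 libraries remain in doubt. The count of members called stayed at 0 with DESeq2's Wald test and size factors, the likelihood ratio test, other filters and each donor left out. It was 0 without the replicate block too, where 250 genes had an unadjusted p under 0.05 and 0 were called. BMF has no value with at least 10 counts in every library.

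Over all genes, calls numbered 1 with DESeq2's Wald test, 5 with the likelihood ratio test and 75 with the exchange. With the exchange and settings added after the data were seen, they numbered 616 with the likelihood ratio test, 39 with the earlier quasi-likelihood estimation, 5 without R12016, 918 without R14143 and 0 without R07110. Members called were 3 with the exchange and likelihood ratio test and 3 with the exchange without R14143 (CFLAR, APAF1 and MLKL, all lower), and other-list genes 6 and 6.

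The exchange turned the sign of BCL2L1 (0.01), BAX (0.03), PMAIP1 (0.10), CASP2 (0.13), CASP8 (0.01), FADD (0.08), APAF1 (-0.24), CYCS (0.00), DIABLO (0.06), HTRA2 (0.05) and CDKN1A (-0.06), and the cause was not tested. With each donor left out, the lowest and highest log2 fold changes were -0.29 and 0.05 for BCL2, -0.16 and 0.09 for BCL2L1, -0.08 and 0.07 for BAX, -0.22 and 0.02 for BAK1, -0.24 and 0.03 for BIK, -0.02 and 0.97 for BCL2L11, -0.07 and 0.07 for CASP2, -0.13 and 0.07 for CASP8, -0.11 and 0.05 for FADD, -0.12 and 0.22 for APAF1, -0.08 and 0.02 for DIABLO, -0.30 and 0.01 for RIPK1, -0.11 and 0.01 for AIFM1, and -0.10 and 0.04 for HTRA2. The same range was -0.45 to -0.03 for MLKL, -0.11 to -0.02 for the median of the death genes and -0.29 to -0.12 for that of the survival genes.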
